A study of Mus musculus with 5 samples.

Results

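The miR-297, miR-466, miR-467 and miR-669 families are 4 groups of near-identical microRNAs (miRNAs) whose hairpins stand in a tandem array inside an intron of the mouse gene Sfmbt2. All names beginning with one of these 4 prefixes and carrying no asterisk were taken from the 5 deposited tag tables, which gave 43 of the 593 miRNA names with a count. They were 4 names of miR-297, 20 of miR-466, 8 of miR-467 and 11 of miR-669. Names with an asterisk, which stand for the less retained strand of a hairpin, number 6 in these families and are described separately.

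Small RNA was sequenced from C57BL/6 mouse testis cells, in 5 libraries. The 2 Thy1+ libraries came from freshly isolated cells retained by magnetic beads with a Thy1.2 antibody, which enriches spermatogonial stem cells, the self-renewing cells at the base of sperm production. The 2 Thy1- libraries came from the fresh cells that the beads did not retain, which the sample titles call enriched for somatic cells although their cell type label repeats the stem cell name. The single culture library came from germ cells grown out of a Thy1+ population for about 10 passages. No age, pooling of animals or separate origin of replicates is given in the labels, so a p-value measures the spread between these samples, which may be technical. Libraries of mixed cells cannot tell fewer cells of a type apart from less RNA per cell.

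A miRNA is cut from the stem of a hairpin transcript as a short duplex, and the retained strand pairs with messenger RNAs mainly through its seed, bases 2 to 8 from the 5′ end. A shift of the 5′ end by a single base therefore gives another seed. Sfmbt2 encodes a Polycomb group protein that is paternally expressed in early mouse embryos and in the placenta, and the miRNA array in its intron is a rodent feature known for high expression in placenta and embryonic stem cells.

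The GENCODE annotation of GRCm38 holds 81 hairpins of these families, and 71 of them lie on chromosome 2 within Sfmbt2 (10370510 to 10595253). Of the 71, 5 belong to miR-297, 23 to miR-466, 14 to miR-467 and 29 to miR-669. They span 51.6 kb from 10466663 to 10518279, all inside 1 intron (10461473 to 10523944), which is intron 10 of transcript Sfmbt2-201 and intron 11 of Sfmbt2-205. The array does not hold the annotated hairpin of every member. The hairpins of miR-466i (chromosome 13, opposite an intron of Cdk13), miR-466j (chromosome 10), miR-466k (chromosome 3), miR-467f (chromosome 11, opposite an intron of Fxr2), miR-467g (chromosome 5, opposite an intron of Grk4) and miR-467h (chromosome 9) are annotated only elsewhere. By annotation, 6 of the 43 names therefore go against the label of an intronic family. Of their counts, however, 92.6% were found whole in intron hairpins, some of them elsewhere as well.

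The mature sequences of the most abundant names are shown as the deposited tags spell them (DNA letters, 5′ to 3′), with the seed in capitals. They were rebuilt from tags without a mismatch, which covered the full mature length for 37 of the 43 names. The first 2 names share 1 seed and differ in a single base near the 3′ end.
miR-297a: aTGTATGTgtgcatgtgcatgt
miR-297c: aTGTATGTgtgcatgtacatgt

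The miR-467 names are shown because they carry the letters AAGTGC, or AAGTGT in miR-467e, within the seed, in 2 registers set 1 base apart. miR-467a, miR-467c and miR-467d begin with T, and miR-467b and miR-467e begin 1 base earlier.
miR-467a: tAAGTGCCtgcatgtatatgcg
miR-467c: tAAGTGCGtgcatgtatatgtg
miR-467d: tAAGTGCGcgcatgtatatgcg
miR-467b: gTAAGTGCctgcatgtatatg
miR-467e: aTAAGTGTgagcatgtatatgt

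The next name stands for miR-466a-3p, miR-466b-3p, miR-466c-3p and miR-466e-3p, whose mature sequences are identical in the files, and the line after it is their most counted tag, which starts at base 2.
miR-466a-3p: tATACATAcacgcacacataaga
miR-466a-3p tag from base 2: aTACATACacgcacacataaga

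The most abundant miR-669 name, and the member with the largest rise in the culture against the Thy1- libraries, had the following sequences.
miR-669c: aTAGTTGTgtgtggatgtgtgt
miR-669h-5p: aTGCATGGgtgtatagttgagtgc

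Across the 37 sequences there were 23 distinct seeds. Of these, 6 were shared by 2 or more names, and 20 names fell into the shared seeds. The largest groups were ATACATA with 7 names, all 3′ strands of miR-466 or miR-297, and ATGTGTG with 4 names, all 5′ strands of miR-466. Dinucleotide repeats were common in these sequences. The motif TGTGTG was found in 18 of the 37 (48.6%) and ACACAC in 6 (16.2%), and 24 (64.9%) held at least 1 of them, against 10 of 457 names outside the families (2.19%). Only the sequenced strand was searched, and a match describes the letters alone.

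The names are not 43 independent measurements. A tag that was placed equally well on several names was split equally, and the number of its placements is its spread. Between 81.1% and 89.2% of the member counts in a library came from tags with a spread of 1, against 92.7% to 97.2% of the counts of names outside the 4 families. Every tag of miR-466a-3p, miR-466b-3p, miR-466c-3p and miR-466e-3p was tied, with spreads of 4 to 8 and a mean of 4.48 weighted by counts, so these 4 names share 1 measurement. miR-466b-3-3p drew most of its counts from the same tags and had a mean spread of 4.81. miR-297b-3p was tied in every tag, with a spread of 3, to the minor strand names miR-297a* and miR-297c*. At the other end, miR-669h-5p had only tags with a spread of 1, and miR-297a (mean spread 1.01) and miR-669c (1.00) were close to it.

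The 5 libraries held 937002 and 947687 miRNA counts in Thy1+, 2548234 and 4909753 in Thy1-, and 5110007 in the culture. Levels are given as counts per 1000000 miRNA counts (CPM), not divided by length, since each tag is 1 small RNA and the mature sequences of the families are all 21 to 24 bases long. A CPM is a share and can fall because other miRNAs rise.

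Together the 43 names were a small part of the miRNA counts, and that part was about 5 times as large in the Thy1+ as in the Thy1- libraries. They held 0.652% (95% Clopper-Pearson interval 0.636% to 0.668%) and 0.628% (0.612% to 0.644%) of the counts in the Thy1+ libraries, 0.134% (0.129% to 0.138%) and 0.124% (0.121% to 0.127%) in the Thy1- libraries, and 0.272% (0.268% to 0.277%) in the culture. The intervals cover counting error only. The 2 fresh groups did not overlap, and the culture lay between them. In CPM the sum was 6399 ± 171 in Thy1+ and 1286 ± 71.1 in Thy1- (SD, n = 2), a ratio of means of 4.97, and 2722 in the culture.

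**Figure D1:**
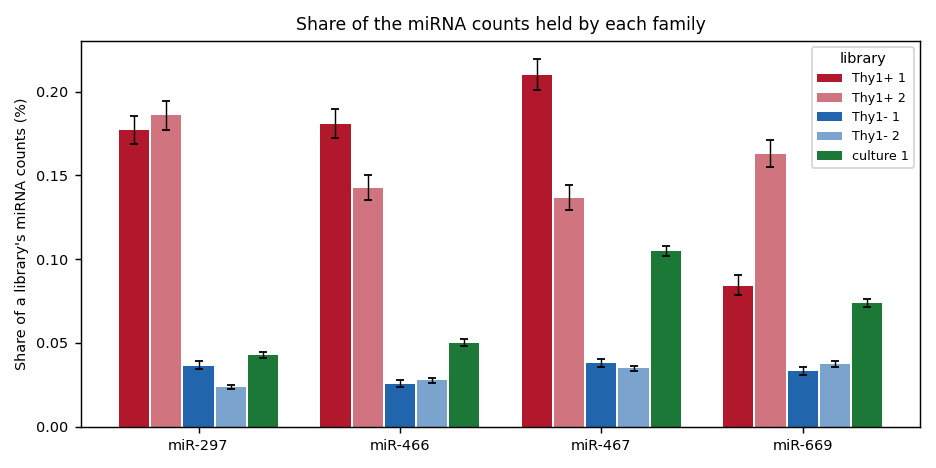
Share of a library's miRNA counts held by each of the 4 families (y axis, percent, from 0), with 1 bar for each library and 95% Clopper-Pearson intervals as error bars. In each family both Thy1+ bars stand above both Thy1- bars, and miR-467 and miR-669 hold larger shares of the culture than miR-297 and miR-466 do.

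By CPM, the families differed in how far the culture fell below the Thy1+ libraries. miR-297 stood at 1814 ± 62.7 CPM in Thy1+, 301 ± 91.4 in Thy1- (SD, n = 2) and 431 in the culture, and miR-466 at 1617 ± 270, 268 ± 14.4 and 503. The ratios of culture to the Thy1+ mean were 0.237 and 0.311. miR-467, at 1732 ± 520, 365 ± 23.2 and 1049 CPM, and miR-669, at 1236 ± 557, 353 ± 29.1 and 740 CPM, had ratios of 0.606 and 0.598. Between the Thy1+ libraries, replicate 1 was the higher for miR-467 (2099 against 1364 CPM) and replicate 2 for miR-669 (842 against 1629 CPM), so the spread between replicates is much larger for these families than for miR-297. Relative to the bulk of miRNAs, the medians of culture against Thy1+ over the tested names read differently. These median log2 fold changes were -0.27 for miR-297, 0.19 for miR-466, 0.82 for miR-467 and 0.71 for miR-669. Of the tested names, edgeR called 0 higher and 0 lower in each family. The difference between families in the culture rests on 1 culture library and was not tested.

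The levels were concentrated in a few names. Of the 43 names, 11 had a mean above 100 CPM with the 3 groups weighted equally, 19 lay between 10 and 100 CPM and 13 lay under 10 CPM. The 5 most abundant were miR-297a, miR-467a, miR-669c, miR-297c and miR-467e, and they held between 53.3% and 59.0% of the families' counts in a library. Each of these 5 was high in both Thy1+ libraries.

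miR-297a was at 1185 and 1073 CPM in the Thy1+ libraries, 205 and 151 in the Thy1- libraries and 299 in the culture. miR-297c, which carries the same seed, was at 559 and 743 CPM in Thy1+, 150 and 76.6 in Thy1- and 118 in the culture, within the Thy1- range. Both miR-297 names stood well above Thy1- in each Thy1+ library, and by CPM both were far below Thy1+ in the culture. Relative to the bulk of miRNAs, the fall was smaller and neither name passed the edgeR test of culture against Thy1+. The log2 fold changes were -0.27 (SE 0.63) for miR-297a and -0.79 (SE 0.68) for miR-297c.

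miR-467a was at 918 and 494 CPM in Thy1+, 200 and 128 in Thy1- and 457 in the culture. miR-467e was at 401 and 363 CPM in Thy1+, 102 and 85.5 in Thy1- and 193 in the culture. For both, the culture lay below the lower Thy1+ library and above the higher Thy1- library, for miR-467a by a small margin below Thy1+. miR-669c was at 413 and 742 CPM in Thy1+, 123 and 288 in Thy1- and 470 in the culture, which lay between the 2 Thy1+ libraries.

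Further down the order, miR-467c was at 324 and 242 CPM in Thy1+, 26.3 and 49.5 in Thy1- and 229 in the culture. miR-669d was at 190 and 311 CPM in Thy1+, 68.3 and 33.4 in Thy1- and 89.6 in the culture. The tied set led by miR-466a-3p was at 247 and 151 CPM per name in Thy1+, 21.2 and 41.3 in Thy1- and 74.0 in the culture. In all 3 the fresh groups were separate, and miR-467c was the one whose culture level came close to a Thy1+ library. miR-466i, the last of the 12 most abundant names, was at 273 and 205 CPM in Thy1+, 30.2 and 19.1 in Thy1- and 27.0 in the culture, which fell inside the Thy1- range.

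**Figure D2:**
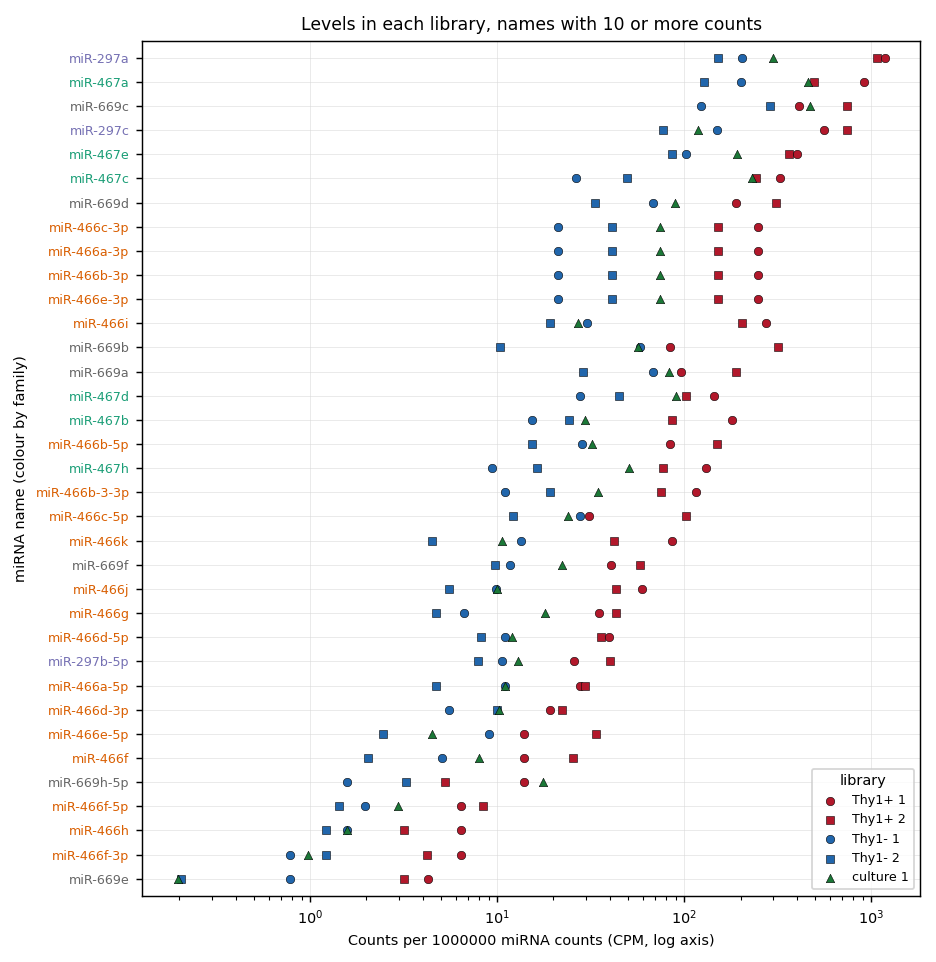
CPM (x axis, log scale) of the 35 names with 10 or more counts, with 1 point for each library and names ordered by their mean over the 3 groups. Both Thy1+ points lie to the right of both Thy1- points in all 35 rows, while the culture points range from the Thy1- to the Thy1+ levels, with miR-669h-5p above them and miR-669e, at 1 count, below them.

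At the low end, 8 names had under 10 counts over all libraries, namely miR-297b-3p, miR-466l, miR-467f, miR-467g, miR-669g, miR-669h-3p, miR-669i and miR-669j. Nothing can be said of their differences at this depth. Counting every member with no filter, 37 of the 43 were higher in both Thy1+ than in both Thy1- libraries by CPM, as were 39% of all 593 names, and 0 were lower in both, as were 16.2% of all names. The other 6 overlapped and all were among the 8 low names.

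The test of Thy1+ against Thy1- asked which names differ between the stem cell enriched and the depleted fraction. Relative to the bulk of miRNAs, 17 of the 31 members that passed the filter on low counts rose and 0 fell (edgeR quasi-likelihood test with Benjamini-Hochberg adjustment over all names, threshold 0.05). Over all 425 names tested, 20.5% rose and 7.76% fell. The median log2 fold change was 1.95 over the tested members and -0.07 over all tested names, and all 31 values were above 0. By family, 2 of 3 tested names rose for miR-297, 11 of 17 for miR-466, 3 of 6 for miR-467 and 1 of 5 for miR-669. The miR-466 count holds the tied set of miR-466a-3p as 4 names. With the tied set taken once as it stood in this fit, the 17 names were 14 measurements of 28. These 14 were not independent, since miR-466b-3-3p drew most of its counts from tags of that set. Also, miR-467c and miR-467h, both called, drew 69.6% and 79.1% of their counts from the 1 hairpin Mir467c.

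The largest rise was that of miR-466i, with means of 239 ± 48.4 CPM in the Thy1+ and 24.7 ± 7.83 CPM in the Thy1- libraries (SD, n = 2) and a log2 fold change of 2.77 (SE 0.57, edgeR adjusted p = 0.0191). miR-467h was at 130 and 77.0 CPM in Thy1+ and 9.42 and 16.3 in Thy1- (log2 2.43, SE 0.63), and miR-466k was at 86.4 and 42.2 CPM in Thy1+ and 13.3 and 4.48 in Thy1- (log2 2.42, SE 0.69). These and miR-466j, at 59.8 and 43.3 against 9.81 and 5.50 CPM (log2 2.25), are among the 6 names whose hairpins are annotated only outside Sfmbt2. miR-467c rose by 2.32 (SE 0.64, edgeR adjusted p = 0.0337).

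Of the abundant names, miR-297a (log2 2.13, SE 0.50, edgeR adjusted p = 0.0237), miR-297c (1.99, SE 0.54) and the set of miR-466a-3p (2.09, SE 0.66, adjusted p = 0.0490) rose. miR-467a (log2 1.62, SE 0.59, edgeR adjusted p = 0.0708), miR-467e (1.49, SE 0.52, adjusted p = 0.0640), miR-669d (1.76, SE 0.56, adjusted p = 0.0506) and miR-669c (0.84, SE 0.63, adjusted p = 0.347) did not pass, and neither did miR-669b at 2.02 (SE 0.86), whose Thy1+ libraries stood at 84.3 and 316 CPM. For all 5 of these names the fresh groups were separate by CPM. The replicates of miR-467e lay close together (SD 27.1 CPM in Thy1+ and 11.7 in Thy1-), while those of the other 4 were further apart in Thy1+, up to an SD of 163 on a mean of 200 CPM for miR-669b.

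All 3 minor strand names that were tested in Thy1+ against Thy1- rose, as did 20.5% of all 425 names tested. They are all of miR-467, and 2 of them share 1 measurement. miR-467a*, which shares all its tags with miR-467d*, was at 90.7 and 57.0 CPM in Thy1+, 11.4 and 11.4 in Thy1- and 35.8 in the culture (log2 2.16, SE 0.56 for Thy1+ against Thy1-, edgeR adjusted p = 0.0285), and miR-467e* rose by 2.39. The most abundant minor strand name of miR-297, miR-297a*, had 7 counts over all libraries.

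The count of 17 depended on both Thy1+ libraries. Without Thy1+ replicate 1, or without Thy1+ replicate 2, edgeR called 0 members and 0 of all names, although 13 and 18 members were past an unadjusted threshold of 0.05, and without Thy1- replicate 2 it called 10 members and 16.4% of all names higher. Scaling to total counts in place of TMM, edgeR's trimmed mean scaling, moved the median of all names by 0.58 and gave 24 members higher and 0 lower, with 110 of 425 names (25.9%) higher and 11 (2.59%) lower in place of 87 and 33.

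Other cell types also differed between these fractions. The 5 white blood cell miRNAs miR-142-3p, miR-142-5p, miR-150, miR-155 and miR-223 summed to 14904 and 26541 CPM in Thy1+ and to 2017 and 1346 CPM in Thy1-, and all 5 rose. Of 5 miRNAs of male germ cells 4 rose, and miR-34c did not pass (log2 0.80, edgeR adjusted p = 0.545). All 5 summed to 184203 and 99156 against 62090 and 17103 CPM. These sums include miR-34c, with 98840 and 22164 counts in Thy1+ and 124339 and 41723 in Thy1-. Of 6 tested miRNAs of the pluripotent miR-290 to miR-295 cluster 5 rose (6308 and 13373 against 1029 and 602 CPM). Both gonadal somatic miR-202 strands fell (1138 and 2205 against 18584 and 3712 CPM), as did all 3 red blood cell miRNAs (252 and 179 against 1344 and 1475 CPM), and 0 of 5 mesenchymal miRNAs passed. The part of these markers in the rise of the 4 families was not tested. In the culture, male germ cell miRNAs summed to 227963 CPM and mesenchymal miRNAs to 52882 CPM, each above all 4 fresh libraries, and relative to the bulk of miRNAs 5 of 5 and 2 of 5 rose against Thy1- and 0 of 5 and 4 of 5 against Thy1+. Most of the germ cell sum was miR-34c, with 999172 of the 5110007 miRNA counts of the culture. The other 4 germ cell names, miR-741, miR-880, miR-881 and miR-871, each lay below both Thy1+ and above both Thy1- libraries by CPM. White blood cell miRNAs summed to 937 CPM, with 1 of 5 higher and 0 lower against Thy1- (median log2 0.08) and 3 of 5 lower against Thy1+. The pluripotent cluster summed to 737 CPM, with 0 of 6 higher or lower against Thy1- and 3 of 6 lower against Thy1+. Red blood cell miRNAs (12.5 CPM) and miR-202 (173 CPM) were below all 4 fresh libraries. The part of these lists in the culture values of the 4 families was not tested either.

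The culture was then compared with both fractions. With 1 culture library, its spread had to be taken from the fresh libraries in a model of all 5. The 2 comparisons share their libraries and are given side by side. Against Thy1+, edgeR called 0 of 34 tested members higher and 0 lower, with 8.94% of all 470 names higher and 13.4% lower. DESeq2 and limma-voom also called 0, and 1 member passed an unadjusted threshold of 0.05 in each tool. The median log2 fold change was 0.20 over the members and -0.09 over all names. That member was miR-669h-5p, at 13.9 and 5.28 CPM in Thy1+, 1.57 and 3.26 in Thy1- and 17.6 in the culture (log2 2.49, SE 0.81, edgeR adjusted p = 0.0549). It rests on few counts, 13 and 5 in the Thy1+ libraries and 90 in the culture, and the culture lay above all 4 fresh libraries. The lowest value was that of miR-466i (log2 -1.51, SE 0.70, edgeR adjusted p = 0.146).

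The scale decides how the culture reads against Thy1+. By CPM, 35 of the 43 names lay below both Thy1+ libraries in the culture, as did 69% of all names, and 2 lay above both, as did 12.1%. Scaling to total counts moved the median of all names by -1.64 and that of the tested members to -1.43, with 3 members lower (miR-466i at -3.14, miR-466j at -2.36 and miR-297c at -2.46) and 0 higher. Over all names it gave 9 (1.91%) higher and 164 (34.9%) lower in place of 42 and 63. On the TMM scale 23 of 34 members were above 0 and under total scaling 1 was.

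Against Thy1-, 17 of 34 members rose and 0 fell in the culture, with 18.1% of all 470 names higher and 16.8% lower. The median was 1.88 over the members and -0.15 over all names. By family, 1 of 3 names rose for miR-297, 7 of 19 for miR-466, 5 of 6 for miR-467 and 4 of 6 for miR-669. The miR-466 count holds the tied set of miR-466a-3p as 4 names. It also holds miR-466b-3-3p, which drew most of its counts from the same tags. By CPM, 28 of the 43 lay above both Thy1- libraries, as did 23.9% of all names, and 1, miR-669e (1 count in the culture, 2 and 1 in Thy1-), lay below both, as did 54.8%. The 17 names were 14 measurements of 31, and taking each set of tied names as 1 name before the fit left 10 called, with 14.5% of all names higher. Here too the 14 were not independent, since miR-466b-3-3p, miR-467c and miR-467h were again among them.

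miR-669h-5p had the largest rise, of 3.78 (SE 0.81, edgeR adjusted p = 0.00974), with 4 and 16 counts in the Thy1- libraries. miR-467c rose by 3.58 (SE 0.73, edgeR adjusted p = 0.00804), miR-467h by 2.96, miR-466g by 2.73 and miR-467a by 2.55. miR-466g was at 35.2 and 43.3 CPM in Thy1+, 6.67 and 4.68 in Thy1- and 18.0 in the culture, again between the fractions. miR-297c (log2 1.15, edgeR adjusted p = 0.186) and miR-466i (1.20, adjusted p = 0.171) did not pass. Total scaling moved the median of all names by -1.04 and left 2 of these 17 calls, miR-467c and miR-669h-5p, with 34 names (7.23%) higher and 121 (25.7%) lower in place of 85 and 79. Without Thy1+ replicate 2, or without Thy1- replicate 1, 0 members were called, with 16 and 13 past an unadjusted threshold of 0.05 and with 4.34% and 7.53% of all names higher. Without Thy1+ replicate 1 or Thy1- replicate 2 the counts were 6 and 11, with 12.4% and 14.7% of all names higher.

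**Figure D3:**
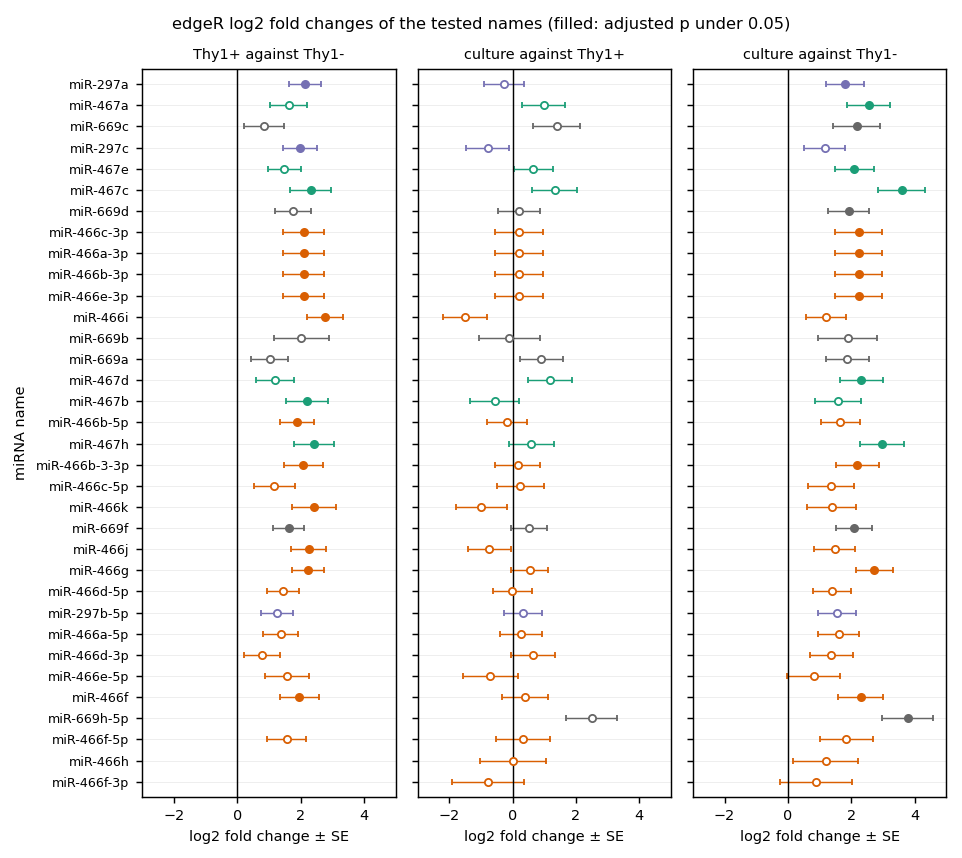
Log2 fold changes (x axis, edgeR on the TMM scale) with standard errors for each tested name in the 3 comparisons, coloured by family and filled where the adjusted p is under 0.05. All 31 values lie above 0 for Thy1+ against Thy1- and all 34 for culture against Thy1-, while 23 of 34 lie above 0 for culture against Thy1+. The comparisons share libraries.

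The names of these families and the hairpins their tags match are not the same thing. Of the member counts in a library, 80.8% to 83.7% came from tags without a mismatch to the name, against 91.0% to 94.98% for names outside the families. Over all libraries 56.5% of the mismatched member counts were found whole in a hairpin of the intron and 43.1% in no annotated hairpin. By library, 73.3% to 80.4% of member counts were found whole in intron hairpins alone, 11.2% to 18.7% both in the intron and elsewhere, and 0.0431% to 0.250% elsewhere alone. The search covered the sequences of 2201 annotated hairpins and not the genome, and the deposited placement was kept for every other value.

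Of the 1753 counts of the 6 names annotated only outside Sfmbt2, 92.6% were found whole in intron hairpins and 0.494% elsewhere alone. The most counted tags of miR-466i and miR-467h are shown under the mature sequences of those names, with bases 2 to 8 in capitals, because they carry the largest rises in the fresh comparison.
miR-466i: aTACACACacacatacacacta
miR-466i tag: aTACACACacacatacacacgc
miR-467h: aTAAGTGTgtgcatgtatatgt
miR-467h tag: aTAAGTGCgtgcatgtatatgt

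Only 11.3% of the counts of miR-466i were exact. Another 68.2% matched the hairpin Mir466f-3 alone and 15.6% Mir466f-2 alone, both in the intron, and the tag shown has 2 mismatches to miR-466i. For miR-467h 0.626% of counts were exact, while 79.1% matched Mir467c and 9.75% Mir467d, and the tag shown has 1 mismatch. For miR-466j 13.0% were exact and 58.2% matched Mir466g. miR-466k was different, with 80.8% exact counts, which matched its own hairpin and several intron hairpins equally.

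Names of the intron were mixed in the same way. Of miR-669d, 29.3% of counts were exact and 64.9% matched Mir669l. Of miR-467c, 70.6% were exact and 25.4% matched Mir467e. Of miR-466g, 20.8% were exact and 79.2% were found in no annotated hairpin. Its most counted tag, aTACAGACacatgcacacacc, has 1 mismatch to the name.

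**Figure D4:**
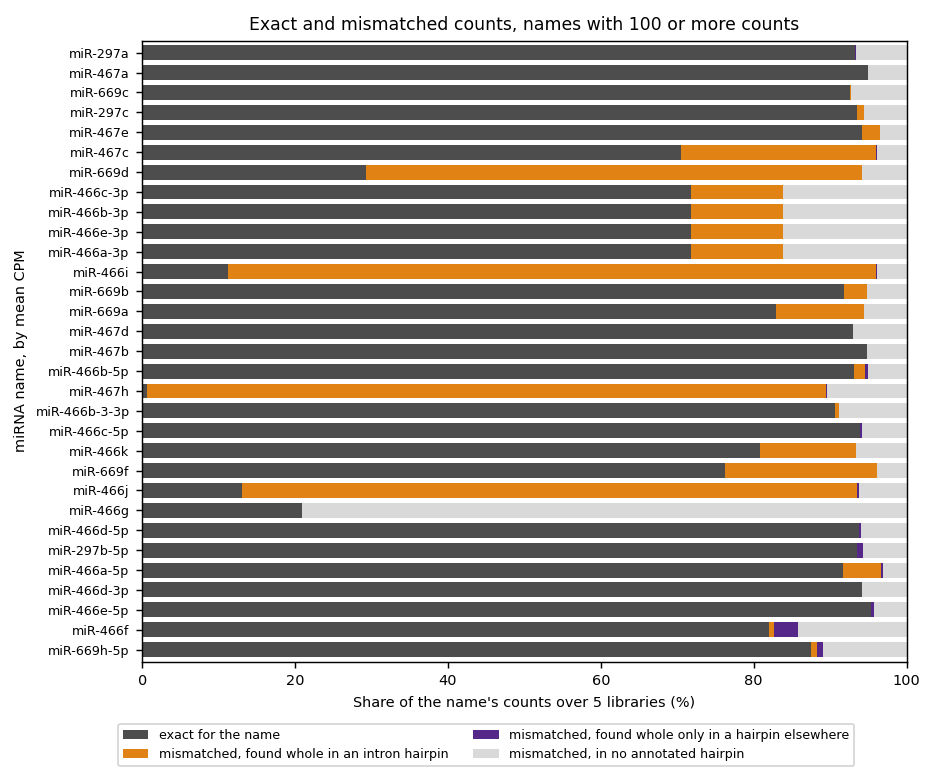
Share (x axis, percent) of the counts of each name with 100 or more counts that was exact for the name, mismatched but found whole in an intron hairpin, mismatched and found only in a hairpin elsewhere, or mismatched and in no annotated hairpin. miR-466i, miR-466j, miR-467h and miR-669d are mostly mismatched tags of intron hairpins, and miR-466g is mostly tags in no annotated hairpin.

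Tags found whole in exactly 1 annotated hairpin give a level for that hairpin that does not depend on which member name they were filed under. Only tags filed under member names were used, so tags filed only under minor strand names are left out. The tags of exactly 1 hairpin made up 37.9% to 49.9% of the counts of the members' tags in a library. Of the 71 intron hairpins, 25 had such a tag and 46 had none, many of them near-identical copies, and the 4 hairpins elsewhere with such a tag held 9 counts in all. The 13 intron hairpins with 100 or more such counts stood within 7.27 kb of the first hairpin or beyond 39.1 kb from it, at the ends of the array. All 13 were higher in both Thy1+ than in both Thy1- libraries, as were 39% of all names, with ratios of means from 2.89 to 14.2 and a median of 4.64.

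Mir466g had the highest ratio, with 59.8 and 40.1 CPM in Thy1+, 2.75 and 4.28 in Thy1- and 7.63 in the culture. Mir466f-3 was at 188 and 145 CPM in Thy1+, 20.8 and 11.8 in Thy1- and 18.2 in the culture. Mir669c had the lowest ratio, with 381 and 689 CPM in Thy1+, 109 and 262 in Thy1- and 435 in the culture. In the first 2 of these hairpins the culture was closer to the Thy1- than to the Thy1+ levels, and in the last it lay between the Thy1+ libraries.

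Neighbouring hairpins differed in the culture. Mir297c and Mir669c start 42.4 and 42.6 kb from the first hairpin. Mir297c was at 521 and 702 CPM in Thy1+ and 108 in the culture, below both, while Mir669c was within the Thy1+ range. At the other end, Mir466f-3, 5.29 kb in, had a ratio of culture to Thy1+ mean of 0.110, while Mir467c, 7.27 kb in, stood at 338 and 184 CPM in Thy1+ and 213 in the culture, a ratio of 0.815. Over the 13 hairpins the culture was below both Thy1+ libraries in 10, within them in 2 and above them in 1, Mir669h (11.7 and 3.17 against 16.6 CPM). Of all names 69% lay below both and 12.1% above both, so these counts are close to the background. These ratios rest on 1 culture library and were not tested.

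**Figure D5:**
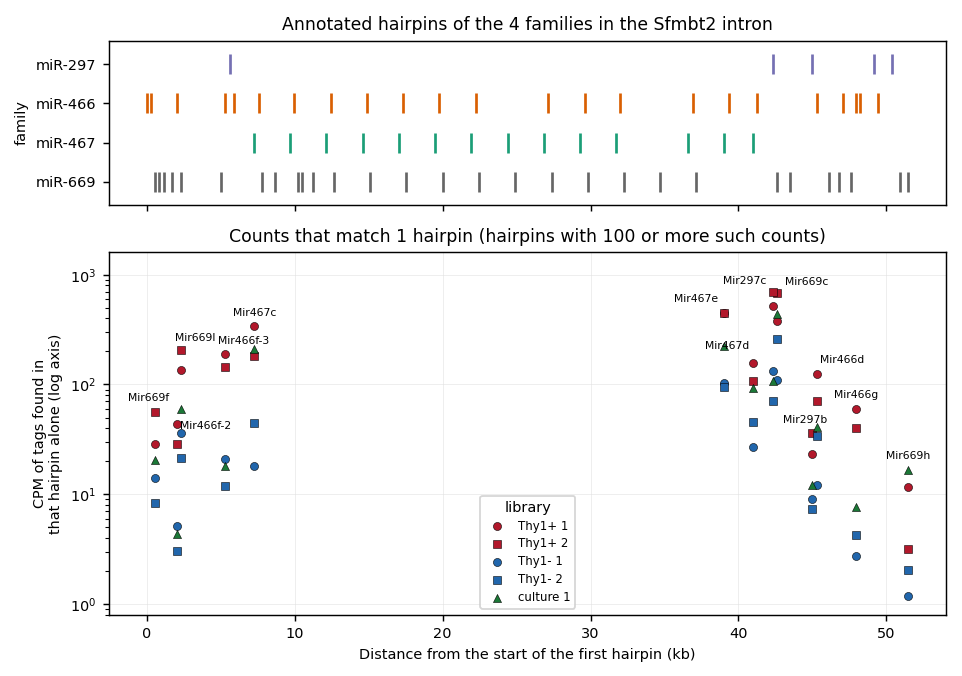
Upper panel, the 71 annotated hairpins by family and distance from the first hairpin (x axis, kb). Lower panel, CPM on a log axis of the tags found in that hairpin alone, for the 13 hairpins with 100 or more such counts and with 1 point for each library, where both Thy1+ points lie above both Thy1- points for every hairpin.

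Several names were sequenced with more than 1 5′ end. Over the 5 libraries 87.3% to 92.3% of member counts began at the first base of the mature sequence and 6.78% to 12.0% at the second. The set of miR-466a-3p began at base 1 in 53.4% to 59.5% of its counts and at base 2 in 37.8% to 45.1%, so both the seed ATACATA and the seed TACATAC were common in each library. Tags from base 2 were also tied to miR-466b-3-3p, which took a part of their counts. The shares of the set therefore understate base 2 and do not rank the seeds. miR-466d-5p began at base 2 in 82.0% to 97.5% of its counts. miR-466b-5p varied more, with base 2 in 41.5% and 25.7% of counts in Thy1+, 28.7% and 58.2% in Thy1- and 33.1% in the culture, and the fresh groups overlapped.

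One hairpin could also give 2 names through its 5′ ends. The tags of Mir467c were filed under miR-467c when they began at T of the AAGTGCG seed and under miR-467h when they began 1 base earlier, and those of Mir467e under miR-467e and, 1 base later and with 2 mismatches, under miR-467c. The most counted tags were as follows.
Mir467c tag filed as miR-467c: tAAGTGCGtgcatgtatatgtg
Mir467c tag filed as miR-467h: aTAAGTGCgtgcatgtatatgt
Mir467e tag filed as miR-467e: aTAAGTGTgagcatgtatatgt
Mir467e tag filed as miR-467c: tAAGTGTGagcatgtatatgtg

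The first of these tags had 169 and 88 counts in Thy1+, 23 and 120 in Thy1- and 706 in the culture, and the second 83 and 47, 15 and 45, and 174. The third had 242 and 216 counts in Thy1+, 142 and 244 in Thy1- and 578 in the culture, and the last 71 and 98, 32 and 73, and 235. For Mir467c the earlier start was the less counted form in all 5 libraries, and for Mir467e the later start was.

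The hexamer AAGTGC at bases 2 to 7 of a tag is shared between miR-467 and miRNAs outside the families, among them miR-291a-3p, miR-294 and miR-295 of the cluster known from embryonic stem cells. Only a small part of the tags of miR-93 and miR-20a, of the miR-17 clusters, carried it at these bases. That part was 1539 and 671.5 counts over the 5 libraries, while Thy1- replicate 2 alone held 83314 counts of miR-93 and 76026 of miR-20a. Tags of the 4 families with this hexamer stood at 1279 and 716 CPM in Thy1+, 231 and 206 in Thy1- and 716 in the culture. Tags of other names with it stood at 4401 and 9475 CPM in Thy1+, 906 and 602 in Thy1- and 581 in the culture. The families therefore held 22.5% and 7.03% of the counts with this hexamer in Thy1+, 20.3% and 25.5% in Thy1- and 55.2% in the culture, where their share was above that of all 4 fresh libraries. This comparison too rests on 1 culture library and was not tested.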

How the data were processed

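The deposited tables list, per the file headers, each sequence tag with its raw count, the mature miRNA names it was placed on, the start, the mismatches (at most 2) and the number of placements. Per the file names, the authors used miRBase 12.0 and tags of 15 to 35 bases, and the tags span 15 to 25. DESeq appears in the submitters' processing notes, with neither version nor role. How adapters were trimmed, the aligner and its build: not given in the sources used here. The tables list tags on miRNAs alone, so totals are miRNA counts and not sequencing depth.

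Tied tags were split equally over their names and sums rounded to whole counts. Sample titles gave the groups and their replicate numbers. Tests used edgeR 4.0.16 in R 4.3.3 (quasi-likelihood, TMM, filterByExpr, two-sided), with Benjamini-Hochberg adjustment over all names tested and a threshold of 0.05. The fit of Thy1+ against Thy1- used the 4 fresh libraries, and the culture fits used all 5. Alternatives were RLE and total scaling, no filter, DESeq2 1.42.0, limma-voom (limma 3.58.1), exact tags, untied tags, merged ties, each fresh library left out and a replicate block. An alternative that kept only family tags found in intron hairpins was chosen after seeing the data. Hairpin positions and sequences came from GENCODE vM21 (GRCm38). The fit was tested on simulated data and recovered 99%, 92% and 96% of names changed by 2 on the log2 scale, for Thy1+ against Thy1- and for culture against Thy1+ and against Thy1-, with 405, 418 and 418 names tested. The simulated spread (dispersion 0.05) was lower than that of the data. There edgeR's biological coefficient of variation, the square root of the dispersion, was 42.8% in the fresh fit and 42.9% in the culture fits. The recovered shares therefore show that the fit runs as intended and do not give its power on these data.

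The members and the marker lists were chosen with earlier results of these data known. Named members were the 12 with the highest mean CPM, up to 5 called names per direction and comparison with the largest change, the most abundant name of each family and its most abundant minor strand, names tied in every tag, and names under 10 counts. Other names were chosen after their values were seen.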

Additional observations from a re-analysis of the deposited data

How the results depend on the processing

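In Thy1+ against Thy1-, 12 to 24 members were called higher and 0 lower under the scaling, filter, tool, tag, tie and hairpin alternatives. The replicate block left 1 member (miR-466i, adjusted p = 0.0462 in edgeR) and 32 names in all. The labels do not say whether same-numbered libraries share an origin. Their deviations had r = -0.06 over 425 names, which cannot settle this with 2 libraries in each fraction. The reason for the loss of calls under the block was not tested. Leaving out 1 library gave 0 to 15 members and 0 to 138 names. In culture against Thy1+, total scaling called 3 members and 173 names, no filter, exact tags and intron hairpin tags each called 1 member (miR-669h-5p), and leaving out 1 library gave 0 to 1 members and 0 to 128 names. In culture against Thy1-, total scaling called 2 members, merged ties 10, and leaving out 1 library 0 to 11 members and 46 to 135 names.

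Changes of sign among named members occurred in culture against Thy1+. The values that changed sign passed no threshold in either fit. Total scaling gave miR-467a -0.63, miR-669c -0.30, miR-467e -0.99, miR-467c -0.31, miR-669d -1.48, the miR-466a-3p set -1.43, miR-467h -1.03, miR-466g -1.12 and miR-467a* -1.04. Exact tags gave the miR-466a-3p set -0.04. Over the fits that left out 1 library each, miR-669d ranged from -0.09 to 0.20, the miR-466a-3p set from -0.54 to 0.73, miR-467h from -0.16 to 1.16 and miR-467a* from -0.14 to 1.09. The cause was not tested. Depth limits the 8 names under 10 counts, and the culture has 1 library.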
